A study of Mus musculus with 6 samples.

Results

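Genes of V(D)J recombination and of the B lineage transcription programme were examined in bone marrow (BM) of irradiated mice that had been rescued with mesenchymal stromal cells. The set held 10 genes chosen by their function, with earlier results of these data known. They were Rag1, Rag2, Dntt, Il7r, Ebf1, Pax5, Tcf3, Lef1, Bach2 and Pou2af1. Of these, 9 had 1 named probe each among the 13831 genes named on the array, whereas no probe was named for Tcf3, and all 9 were tested in each comparison.

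The study asked how the BM of mice rescued by stromal cells differed from that of mice given a BM graft. RNA was labelled and hybridized to CodeLink UniSet Mouse 20K I Bioarrays, which report the brightness of a spot for each short DNA probe. There were 3 groups with 2 arrays each, called pool 1 and pool 2. The MSC group held lethally irradiated (9.5 Gy) female C57BL/6J-CD45.1 recipients of bulk mouse mesenchymal stromal cells (mMSCs), which had been grown from marrow of male C57BL/6J mice and labelled with eGFP in culture, and each array held the pooled marrow of 3 of them. The HSC group held C57BL/6J-CD45.1 females irradiated alike that received whole BM cells and not sorted stem cells, with marrow of 2 mice per array. The BM group was marrow of age-matched mice that were neither irradiated nor transplanted, again with 2 mice per array. The labels give all samples as C57BL/6J females of 6 to 10 weeks, without the CD45.1 of the recipients that the methods state. Sampling was on day 21 after transplantation by the methods of the study and at 7 months by the design text of the series, a conflict that the files did not settle. Marrow was flushed whole, so that any cells of the host and of the graft were measured together. The study reported no donor mMSCs in marrow by PCR for eGFP, within its detection limit, in recipients of a cloned mMSC line.

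The arrays limited the precision by their number. Between 11045 and 12458 of 19801 probes per array were above background, and the ratio of a spot to its local background had a median of 2.10 to 2.69. Markers of marrow were present in all groups, with 7 to 9 of 9 neutrophil, 7 or 8 of 8 erythroid and 10 of 10 monocyte and macrophage genes above background on each array, but MSC pool 2 stood apart. Its 9 genes of the T lineage were on average 1.53 above their own means over the 6 arrays on the log2 scale, against -0.15 in MSC pool 1, -0.43 and -0.58 in the HSC pools and -0.13 and -0.23 in the BM pools. Its 9 genes of stroma and osteoblasts were 1.06 above their means, against values between -0.83 and 0.12 on the other 5 arrays.

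V(D)J recombination joins gene segments of antigen receptors in developing lymphocytes. The RAG1 and RAG2 proteins together cut the DNA beside the segments, the cut ends are joined by the general machinery of non-homologous end joining, and terminal transferase (Dntt) adds bases to the junctions. In the marrow this takes place in B cell precursors that depend on interleukin 7 and that are set on their path by the E protein of Tcf3, by EBF1 and then by PAX5. In whole marrow a lower signal can come from fewer cells of a type or from less RNA in each cell, and the arrays cannot tell these apart.

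The promoters of the genes whose signal differed, and of Rag1 as the partner of Rag2, are shown because E proteins such as that of Tcf3 bind the E-box CANNTG. The 250 bases before the start of each gene are given from 5′ to 3′ from RefSeq on GRCm38.p6, with each E-box in capitals. Rag2 lies at chr2:101624462-101624711 on the plus strand, Rag1 at chr2:101649533-101649782 on the minus strand, and Dntt at chr19:41029025-41029274 on the plus strand. The second annotated start of Ebf1 lies at chr11:44619978-44620227 and Bach2 at chr4:32417185-32417434, both on the plus strand.
Rag2: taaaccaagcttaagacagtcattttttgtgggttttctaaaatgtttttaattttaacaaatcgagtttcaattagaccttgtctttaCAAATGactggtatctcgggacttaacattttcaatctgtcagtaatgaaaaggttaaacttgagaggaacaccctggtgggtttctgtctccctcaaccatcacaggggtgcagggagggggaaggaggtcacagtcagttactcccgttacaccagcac
Rag1: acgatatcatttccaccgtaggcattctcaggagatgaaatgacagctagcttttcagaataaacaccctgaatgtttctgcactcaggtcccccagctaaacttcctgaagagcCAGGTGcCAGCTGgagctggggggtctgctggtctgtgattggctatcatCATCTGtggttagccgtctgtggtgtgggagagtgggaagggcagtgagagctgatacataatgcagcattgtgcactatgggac
Dntt: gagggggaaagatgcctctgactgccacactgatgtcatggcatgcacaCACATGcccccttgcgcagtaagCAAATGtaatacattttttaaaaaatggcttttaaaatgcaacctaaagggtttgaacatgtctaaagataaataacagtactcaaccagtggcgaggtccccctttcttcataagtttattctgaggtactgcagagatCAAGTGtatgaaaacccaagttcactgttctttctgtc
Ebf1: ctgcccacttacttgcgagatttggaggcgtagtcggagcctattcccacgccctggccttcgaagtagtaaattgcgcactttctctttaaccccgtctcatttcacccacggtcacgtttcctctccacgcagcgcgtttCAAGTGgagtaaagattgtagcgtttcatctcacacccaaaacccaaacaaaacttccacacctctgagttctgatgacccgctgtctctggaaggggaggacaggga
Bach2: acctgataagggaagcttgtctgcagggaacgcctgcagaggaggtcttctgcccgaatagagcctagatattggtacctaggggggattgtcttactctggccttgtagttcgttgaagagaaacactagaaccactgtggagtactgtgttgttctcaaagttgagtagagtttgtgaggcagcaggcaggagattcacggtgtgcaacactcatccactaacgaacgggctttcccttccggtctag
Rag1 and Dntt had 3 E-boxes each, Rag2 and the second start of Ebf1 had 1, and Bach2 and the first start of Ebf1, which is not printed, had 0. Over all 14 annotated starts of the 10 genes, 12 windows (85.7%) held an E-box, against 66.2% of 32851 RefSeq promoters of the same length. The form CAGCTG, which is itself an E-box, was in 2 windows, those of Rag1 and the third start of Lef1, against 13.0% of all promoters. The EBF1 motif CCCNNGGG, the octamer ATGCAAAT of the factors with which Pou2af1 acts, and the LEF and TCF motif CTTTGAT, all read on both strands, were in 0 of the 14 windows, against 11.8%, 1.60% and 3.21% of all promoters. The first 2 windows of Lef1 overlap, and a match of letters was not tested as a binding site.

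Against the HSC group, the MSC group had a lower signal of a subunit of the recombinase, of terminal transferase and of a pair of B lineage factors. Of the 9 genes 4 fell in the MSC group (Ebf1, Rag2, Bach2 and Dntt), 0 rose and 5 did not pass, where the test was limma with Benjamini-Hochberg adjustment over all 11644 probes and a threshold of 0.05. Over all probes 0.429% were called lower and 0.0945% higher. Rag2 had been selected by the study on these same arrays, so its call is not independent evidence. The genes, and the lists below, were chosen with earlier results of these data known. Their counts of called genes are therefore not independent evidence either. The study also listed Rag2 among genes measured by quantitative PCR in a separate cohort of recipients, and described it as downregulated. Those measurements were not examined here. The methods of the study give the mMSCs of that cohort both as bulk and as a cloned line, whereas the arrays used bulk mMSCs. Before adjustment 6 of the 9 genes had a p under 0.05, as did 17.1% of all probes. The median log2 fold change of the 9 genes was -1.37, beside 0.02 over all probes. For 8 of the 9 genes both MSC arrays lay below both HSC arrays, and for Lef1 both lay above, whereas over all probes 26.4% lay below and 24.9% above in this way.

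**Figure D1:**
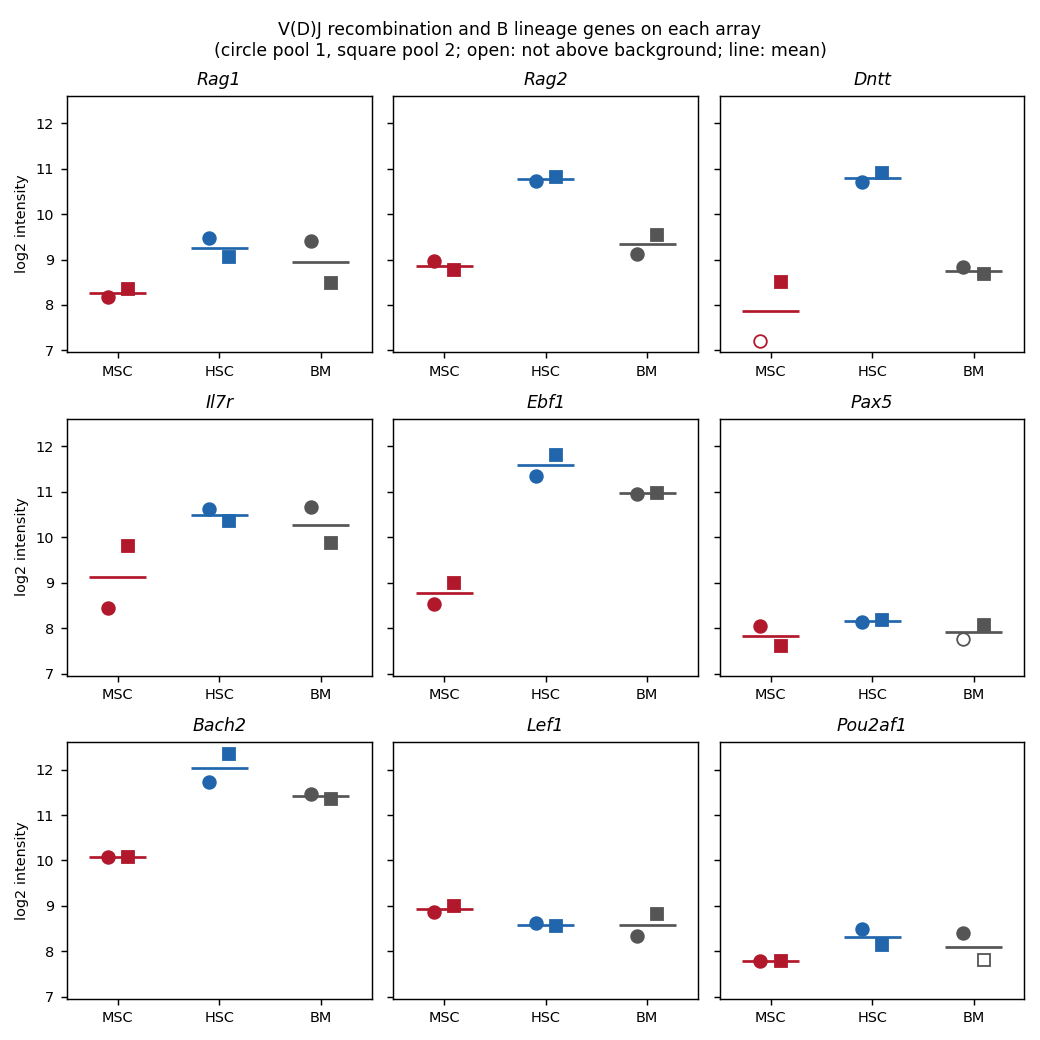
Log2 intensity (y axis, 1 panel per gene) of the 9 genes in the MSC, HSC and BM groups, with a circle for pool 1, a square for pool 2, an open symbol where the spot was not above background, and a line at the mean of the 2 arrays. For Rag2, Dntt, Ebf1 and Bach2 the MSC arrays lie below both HSC arrays, while the points of Pax5, Lef1 and Pou2af1 span less than 1 log2 unit.

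Rag2, the subunit of the recombinase that reads chromatin marks, had log2 intensities of 8.96 and 8.76 in the MSC pools, against 10.73 and 10.81 in the HSC pools and 9.12 and 9.55 in the BM pools. The HSC arrays were thus the high ones, and the MSC and BM arrays lay close to each other without overlapping. The mean was 8.86 ± 0.14 in MSC and 10.77 ± 0.06 in HSC (SD, n = 2 arrays each), 3.76-fold lower in MSC (log2 fold change of -1.91 with an SE of 0.23 and an adjusted p = 0.0281 from limma). This call was lost when any single MSC or HSC array was left out, with adjusted p values of 0.0702 (without MSC pool 1), 0.149 (MSC pool 2), 0.133 (HSC pool 1) and 0.146 (HSC pool 2). With an array left out its group holds 1 array, here and below, which is then assumed to vary as the arrays of the other groups do.

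Rag1, the subunit that cuts the DNA, lies next to Rag2 on chromosome 2. It had 8.17 and 8.35 in the MSC pools, against 9.47 and 9.05 in the HSC pools and 9.40 and 8.48 in the BM pools on the log2 scale. Its direction between MSC and HSC was that of Rag2, but the BM arrays were spread over most of the range of the other groups. The log2 fold change between MSC and HSC was -1.00 (SE 0.34, 95% interval -1.80 to -0.21) and did not pass over all probes (adjusted p = 0.212).

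Dntt, the terminal transferase, had 7.21 and 8.50 in the MSC pools, against 10.70 and 10.91 in the HSC pools and 8.83 and 8.68 in the BM pools. The spot of MSC pool 1 was not above background (1.48 times its local background), whereas that of MSC pool 2 was. The mean was 7.86 ± 0.91 in MSC and 10.81 ± 0.15 in HSC (SD, n = 2 arrays each), 7.71-fold lower in MSC (log2 fold change -2.95, SE 0.40, adjusted p = 0.0421 from limma). The call held without MSC pool 1 (adjusted p = 0.0414) and without MSC pool 2 (0.0225), and was lost without HSC pool 1 (0.152) or HSC pool 2 (0.185).

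Il7r encodes the alpha chain of the receptor of interleukin 7, which B cell precursors and T cells carry. Its log2 intensity was 8.44 and 9.81 in the MSC pools, against 10.62 and 10.36 in the HSC pools and 10.66 and 9.88 in the BM pools. The MSC pools differed more from each other than those of any other group did, and the higher of them was pool 2, the array with the higher T lineage signal. The log2 fold change against HSC was -1.37 (SE 0.47, 95% interval -2.48 to -0.26, adjusted p = 0.219), and it was -2.05 without MSC pool 2 and -0.68 without MSC pool 1. The part of the T lineage signal in Il7r was not tested.

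Ebf1, the early B cell factor that opens the B lineage programme, had log2 intensities of 8.54 and 8.99 in the MSC pools, against 11.36 and 11.82 in the HSC pools and 10.96 and 10.98 in the BM pools. Both MSC arrays were below all 4 others, with a wider gap than in the other 8 genes. The mean was 8.77 ± 0.32 in MSC and 11.59 ± 0.33 in HSC (SD, n = 2 arrays each), a 7.07-fold difference (log2 fold change -2.82, SE 0.26, adjusted p = 0.0135 from limma). By its unadjusted p it ranked 11th of 11644 probes, ahead of Rag2 (30th), Bach2 (39th) and Dntt (45th). The call was lost without HSC pool 2 (adjusted p = 0.0522) and held when any other single array was left out (adjusted p 0.0182 to 0.0454).

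Bach2, a transcriptional repressor of B cells and their precursors, had 10.09 and 10.08 in the MSC pools, against 11.72 and 12.35 in the HSC pools and 11.47 and 11.36 in the BM pools. The MSC arrays were the low ones here too. The mean was 10.08 ± 0.003 in MSC and 12.04 ± 0.45 in HSC (SD, n = 2 arrays each), 3.88-fold lower in MSC (log2 fold change -1.95, SE 0.26, adjusted p = 0.0388 from limma). The call was lost without MSC pool 1 (adjusted p = 0.0924), MSC pool 2 (0.184), HSC pool 1 (0.0579) or HSC pool 2 (0.146).

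Pax5, the factor that commits cells to the B lineage, had 8.04 and 7.60 in the MSC pools, against 8.12 and 8.18 in the HSC pools and 7.75 and 8.06 in the BM pools. Its spots were dim on every array, at 1.62 to 2.42 times the local background, and that of BM pool 1 was not above background. The log2 fold change between MSC and HSC was -0.33 with a 95% interval of -0.89 to 0.24 (adjusted p = 0.517), so that a fall of up to 0.89 lay within the interval.

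Pou2af1 encodes OCA-B, a coactivator of octamer-binding factors in B cells, and its spots were similarly dim, at 1.56 to 2.64 times the local background. It had 7.78 and 7.79 in the MSC pools, against 8.49 and 8.13 in the HSC pools and 8.40 and 7.81 in the BM pools, of which the last was not above background. The log2 fold change between MSC and HSC was -0.53 (95% interval -1.15 to 0.10, adjusted p = 0.362).

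Lef1, a partner of beta-catenin in Wnt signalling that both B cell precursors and T cells express, was the only one of the 9 genes with a positive value against HSC. It had 8.86 and 9.0 in the MSC pools, against 8.61 and 8.56 in the HSC pools and 8.33 and 8.82 in the BM pools. The difference was small beside those of the genes above, with a log2 fold change of 0.34 (95% interval -0.21 to 0.89, adjusted p = 0.489) against HSC and 0.35 (95% interval -0.20 to 0.91, adjusted p = 0.596) against BM. The part of the higher T lineage signal of MSC pool 2 in this value was not tested.

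Against the unmanipulated BM group, the MSC group differed in fewer of the genes. Of the 9 genes 1 fell (Ebf1), 0 rose and 8 did not pass limma over 11846 probes, of which 0.295% were called lower and 0.152% higher. Before adjustment 3 genes had a p under 0.05, as did 12.5% of all probes, and the median log2 fold change was -0.68, beside 0.01 over all probes. Both MSC arrays lay below both BM arrays for 7 genes and above them for Lef1, and the arrays of Pax5 overlapped. Over all probes 21.9% lay below and 20.6% above in this way.

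Ebf1 was 4.61-fold lower in MSC than in BM (8.77 ± 0.32 against 10.97 ± 0.01, SD, n = 2 arrays each), or -2.20 in log2 units with an SE of 0.26 (adjusted p = 0.0259 from limma). The call was lost without MSC pool 1 (adjusted p = 0.0729), MSC pool 2 (0.0762), BM pool 1 (0.0546) or BM pool 2 (0.0713), while the log2 fold change stayed between -2.43 and -1.98. Bach2 came next with -1.33 (SE 0.26, 95% interval -1.94 to -0.72, adjusted p = 0.116), followed by Il7r with -1.14 (SE 0.47, adjusted p = 0.389). The enzymes of recombination had smaller values that did not pass. Dntt had -0.90 (95% interval -1.85 to 0.06, adjusted p = 0.424), Rag1 had -0.68 (95% interval -1.48 to 0.11, adjusted p = 0.469) and Rag2 had -0.47 (95% interval -1.01 to 0.07, adjusted p = 0.462). Pou2af1 had -0.32 (adjusted p = 0.676) and Pax5 had -0.08 (adjusted p = 0.924).

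Between the HSC group and BM none of the 9 genes passed limma over 11145 probes, of which 0.00897% were called higher and 0.0269% lower. All 9 log2 fold changes were above 0, with a median of 0.32 beside 0.00 over all probes, but 4 of the signs turned with 1 array left out. Without BM pool 2 Rag1 had -0.14, Il7r -0.17 and Pou2af1 -0.09, and Lef1 had -0.23 without BM pool 1 and -0.01 without HSC pool 1. Before adjustment 4 of the 9 genes (Rag2, Dntt, Ebf1 and Bach2) had a p under 0.05, as did 5.33% of all probes. Both HSC arrays lay above both BM arrays for 5 genes, namely these 4 and Pax5, whereas over all probes 20.4% did so. The largest values were those of the recombination enzymes. Dntt was at 10.81 ± 0.15 in HSC and 8.76 ± 0.11 in BM (SD, n = 2 arrays each), and the log2 fold change was 2.05 (SE 0.39, 95% interval 1.12 to 2.97, adjusted p = 0.374 from limma). Rag2 was at 10.77 ± 0.06 in HSC and 9.33 ± 0.30 in BM, and the log2 fold change was 1.44 (SE 0.23, 95% interval 0.91 to 1.97, adjusted p = 0.241). By unadjusted p they ranked 14th (Rag2) and 33rd (Dntt) of 11145 probes. Ebf1 and Bach2 both had 0.62 (adjusted p = 0.897 each), and the remaining 5 genes lay between 0.01 and 0.32.

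**Figure D2:**
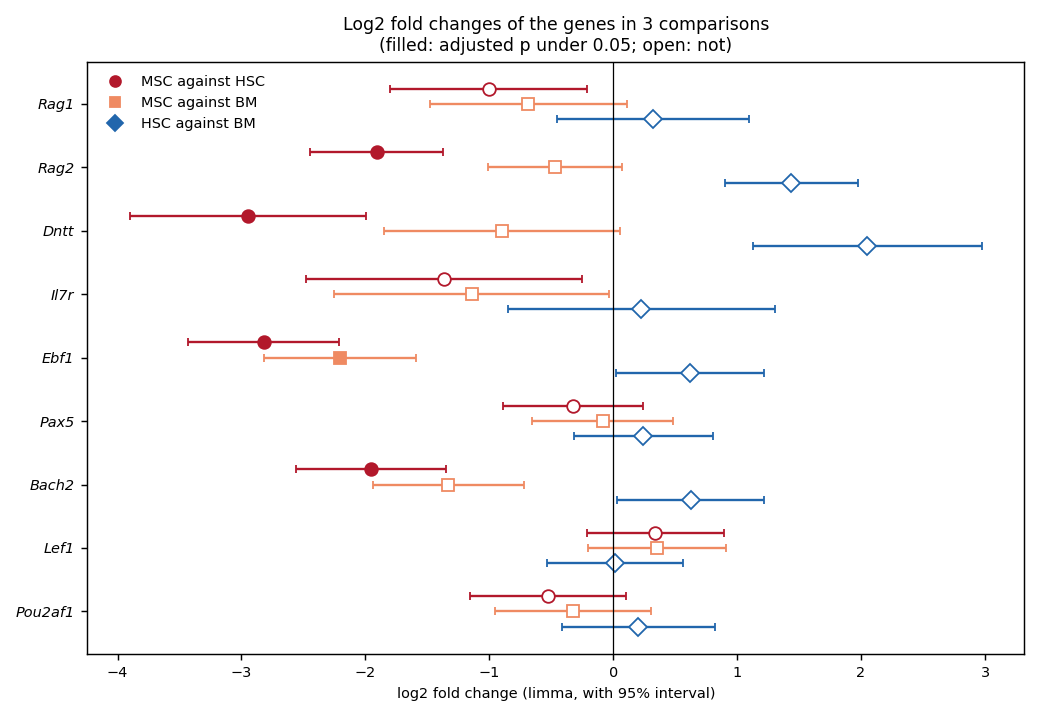
Log2 fold changes (x axis) of the 9 genes in the 3 comparisons, with 95% intervals from limma; filled symbols have an adjusted p under 0.05. Rag2 and Dntt stand at -1.91 and -2.95 for MSC against HSC and at 1.44 and 2.05 for HSC against BM, whereas Ebf1 stands at -2.82 and -2.20 for MSC against HSC and MSC against BM.

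The 3 comparisons share arrays pairwise, and their values for the called genes are set side by side. In Ebf1 and Bach2 both MSC arrays were below the other 4, although Bach2 did not pass between MSC and BM (adjusted p = 0.116). In Rag2 and Dntt the HSC group was the high one, with log2 differences of -0.47 and -0.90 between MSC and BM. The higher value of HSC against BM did not pass the test in either gene. Averaged over the 9 genes after each gene was centred on its mean over the 6 arrays, the log2 level was -0.87 and -0.56 in the MSC pools, 0.66 and 0.70 in the HSC pools and 0.11 and -0.03 in the BM pools. As a description over these 6 arrays, the correlation of each gene with the mean of the other 8 was 0.94 for Bach2, 0.93 for Ebf1, 0.92 for Dntt, 0.86 for Rag2, 0.81 for Rag1, 0.79 for Il7r, 0.73 for Pou2af1, 0.46 for Pax5 and -0.68 for Lef1. Among 1461 named probes with an SD of at least 0.5 over the arrays, the profiles most like this mean were those of Extl2 (r = 0.985), Smtnl2 (0.984), Carmil1 (0.979), Col5a3 (0.976) and Fbxl12 (0.975), and 60 had an r over 0.9. Smtnl2, Col5a3 and Fbxl12 had been selected by the study on these same arrays as lower in MSC. Smtnl2 and Carmil1 were above background on neither MSC array.

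The genes that act with or below these factors were read from lists. Of 16 surface proteins and targets of early B cells 13 were tested between MSC and HSC, of which 4 fell, 0 rose and 9 did not pass, with a median of -1.62. Over all probes 0.429% were called lower in this comparison, and the median was 0.02. Vpreb1 and Vpreb3, which belong to the pre-B cell receptor complex or its assembly, had log2 fold changes of -5.84 (adjusted p = 0.00362) and -5.17 (adjusted p = 0.00510). Vpreb1 too had been selected by the study on these arrays. It was also among the genes that the study measured by quantitative PCR in the separate cohort and described as downregulated. Vpreb3 had 7.46 and 8.59 in the MSC pools, against 13.14 and 13.25 in the HSC pools and 12.42 and 12.59 in the BM pools, with no overlap of MSC with either, and 1 of the 2 MSC spots was not above background. Cd79b, which carries the signal of the B cell receptor inward, had -3.25 (adjusted p = 0.0125), and Cd93, a surface protein of early B cells, had -1.62 (adjusted p = 0.0421). The probe of Cd79a, the partner chain of Cd79b, did not pass (log2 fold change -0.02, adjusted p = 0.976, with 11.53 and 11.87 in the MSC pools and 11.95 and 11.50 in the HSC pools).

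Among the other early B cell genes Blk, a kinase above background on neither MSC array, had a level at least 3.63-fold below that of HSC without passing (adjusted p = 0.0710), and Enpep, a surface peptidase, had -1.85 (adjusted p = 0.116, with 1 of 2 MSC spots above background). The call of Cd93 was lost without MSC pool 1 (adjusted p = 0.0759), MSC pool 2 (0.216), HSC pool 1 (0.181) or HSC pool 2 (0.216), whereas Vpreb1, Vpreb3 and Cd79b were called whichever array was left out. Between MSC and BM, where 0.295% of all probes were called lower, 3 of 12 tested genes fell, with a median of -1.23. These were Vpreb3 (-4.48, adjusted p = 0.00866), Cd79b (-3.24, adjusted p = 0.00906) and Vpreb1 (-3.37, adjusted p = 0.0237, with 1 usable BM array, so that the spread came from the other arrays). Vpreb1 was not called there without MSC pool 1 (adjusted p = 0.0573), MSC pool 2 (0.0751) or either HSC pool (0.0543 each). Between HSC and BM 0 of 13 passed, with a median of 0.19.

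**Figure D3:**
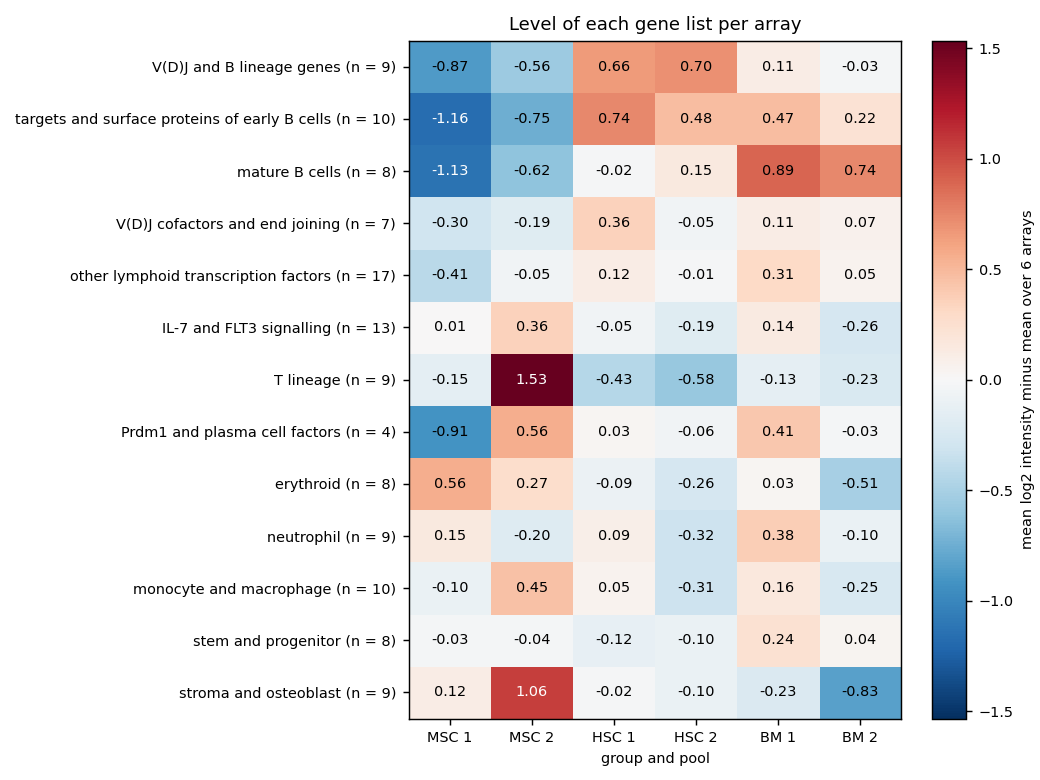
Mean log2 intensity of each gene list on each array (columns), after each gene was centred on its mean over the 6 arrays; n is the number of genes with a value on all arrays. The V(D)J and B lineage genes are at -0.87 and -0.56 in the MSC pools and at 0.66 and 0.70 in the HSC pools, and the T lineage genes of MSC pool 2 are at 1.53.

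Mature B cell genes were read in the same way. Between MSC and HSC 2 of 7 tested genes fell, Ms4a1 (-3.96, adjusted p = 0.0125), which encodes CD20, and Fcmr (-2.76, adjusted p = 0.0242), the receptor of IgM, with a median of -0.75. Fcmr was not called without MSC pool 1 (adjusted p = 0.0606), MSC pool 2 (0.130) or HSC pool 2 (0.0890). For Ms4a1, 1 of the 2 MSC spots was not above background. Between MSC and BM 4 of 9 fell, with a median of -0.87, namely Ms4a1 (-4.20, adjusted p = 0.00866), Fcmr (-3.71, adjusted p = 0.00894), H2-Ob (-2.51, adjusted p = 0.0237) and Cr2, which was not well above background in MSC and lower by at least 3.11-fold (adjusted p = 0.0400). Of these, Ms4a1 was called whichever array was left out, Fcmr was not called without MSC pool 2 (adjusted p = 0.0677), and H2-Ob and Cr2 were not called without BM pool 2 (0.0549 and 0.127) and without either HSC pool (0.0586 and 0.0960). H2-Ob was also not called without BM pool 1 (0.0539), nor Cr2 without MSC pool 1 (0.110) or MSC pool 2 (0.123). Between HSC and BM 0 of 9 passed, with a median of -0.83.

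The partners of the recombinase did not pass in any comparison. Of 14 genes of V(D)J cofactors and end joining 7 were tested in each comparison, though not the same 7. Atm was not tested for MSC against HSC, Xrcc4 for MSC against BM or Tdp1 for HSC against BM. The medians, over these differing genes, were -0.38 for MSC against HSC, -0.23 for MSC against BM and -0.16 for HSC against BM. Polm, a DNA polymerase of the same family as terminal transferase, had -1.32 (adjusted p = 0.115) with 1 of 2 MSC spots above background between MSC and HSC, and Xrcc6 and Xrcc4, which act in end joining, had -0.78 each (adjusted p = 0.257 and 0.174), where Xrcc4 too was above background on 1 MSC array. Of 23 other lymphoid transcription factors 18 were tested between MSC and HSC and 0 passed, with a median of -0.05. Irf4, which acts in pre-B cells, had -1.69 (adjusted p = 0.114, with 1 of 2 MSC spots above background), Foxo1, an activator of the Rag genes, had -1.29 (adjusted p = 0.258), and Id2, an inhibitor of E proteins, had 0.94 (adjusted p = 0.333). The arrays of Id2 overlapped, with 11.29 and 12.61 in the MSC pools and 11.34 and 10.68 in the HSC pools. The medians of this list were -0.21 for MSC against BM (0 of 18 passed) and -0.15 for HSC against BM (0 of 15).

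Of 17 genes of interleukin 7 and FLT3 signalling, which lie around Il7r, 14 were tested between MSC and HSC, 0 passed and the median was 0.05. Ccnd3, a cyclin of pre-B cells, had 1.66 (adjusted p = 0.461), Cish, a feedback inhibitor of cytokine signalling, had 1.40 (adjusted p = 0.115) and Il2rg, the chain with which IL7R pairs, had 0.79 (adjusted p = 0.458). Ccnd3 had 10.55 and 11.25 in the MSC pools, above 9.34 and 9.13 in the HSC pools. Its BM pools, at 11.78 and 7.94, lay far apart and entered the estimate of the spread (SE 1.07). The arrays of Il2rg overlapped, with 10.93 and 12.61 in the MSC pools and 11.06 and 10.91 in the HSC pools. The medians were 0.24 for MSC against BM and -0.19 for HSC against BM, with 0 of 15 passing in each. Of 6 plasma cell factors 4 were tested and 0 passed in each comparison, with medians of 0.52, -0.20 and -0.22 for MSC against HSC, MSC against BM and HSC against BM. Mzb1, a chaperone of immunoglobulin chains, had -2.32 (adjusted p = 0.158) between MSC and HSC, beside 0.61 for Xbp1 (adjusted p = 0.444) and 0.59 for Prdm1 (adjusted p = 0.467). The MSC pools were far apart in Mzb1, with 9.93 in pool 1 and 12.10 in pool 2. Averaged around the own means of the 4 genes, the list stood at -0.91 in MSC pool 1 and 0.56 in MSC pool 2.

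Markers of other cells were read to describe the marrow. In the T lineage 0 of 10 tested genes passed between MSC and HSC, although all 10 values were above 0, with a median of 1.20. The largest were those of Cd8a (1.77, adjusted p = 0.218), Gata3 (1.72, adjusted p = 0.130) and Cd2 (1.47). For Cd2 the only usable MSC array was pool 2, so that the spread came from the other arrays. Cd8a and Gata3 were each above background on 1 of the 2 HSC arrays. Cd8a had 8.78 and 10.52 in the MSC pools, against 8.39 and 7.37 in the HSC pools and 8.79 and 8.10 in the BM pools, so that pool 2 was the high array. The T lineage medians were 0.99 for MSC against BM and -0.20 for HSC against BM, with 0 of 11 passing in each. Of the 9 genes with a value on all arrays 8 and 9 were above background in the MSC pools, 7 in each HSC pool and 9 in each BM pool. Dntt and the Rag genes, which also act in developing T cells, had log2 fold changes below 0 between MSC and HSC. In MSC pools 1 and 2 Dntt had 7.21 and 8.50, Rag1 8.17 and 8.35, and Rag2 8.96 and 8.76. The part of the T lineage signal in these genes was not tested. The medians between MSC and HSC were 0.59 for erythroid, -0.03 for neutrophil, 0.25 for monocyte and macrophage, 0.02 for stem and progenitor and 0.59 for stroma and osteoblast genes, with 0 called in each. Between MSC and BM they were 0.42, -0.09, 0.00, -0.07 and 1.11 in the same order, with Meis1 called lower (-1.71, adjusted p = 0.0476) and Col3a1 called higher (2.02, adjusted p = 0.0315). Meis1 lost its call whichever array was left out (adjusted p 0.0507 to 0.179), and Col3a1 lost its call without BM pool 2, either MSC pool or either HSC pool (0.0549 to 0.136). Between HSC and BM they were 0.08, -0.00, -0.19, -0.11 and 0.40, with 0 called. The part of these other cells in the fall of the B lineage genes was not tested. Against HSC, the median log2 fold change of the 9 genes was -1.81 without MSC pool 2 and -0.91 without MSC pool 1. MSC pool 2 was the array with the highest T lineage and stromal signal.

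**Figure D4:**
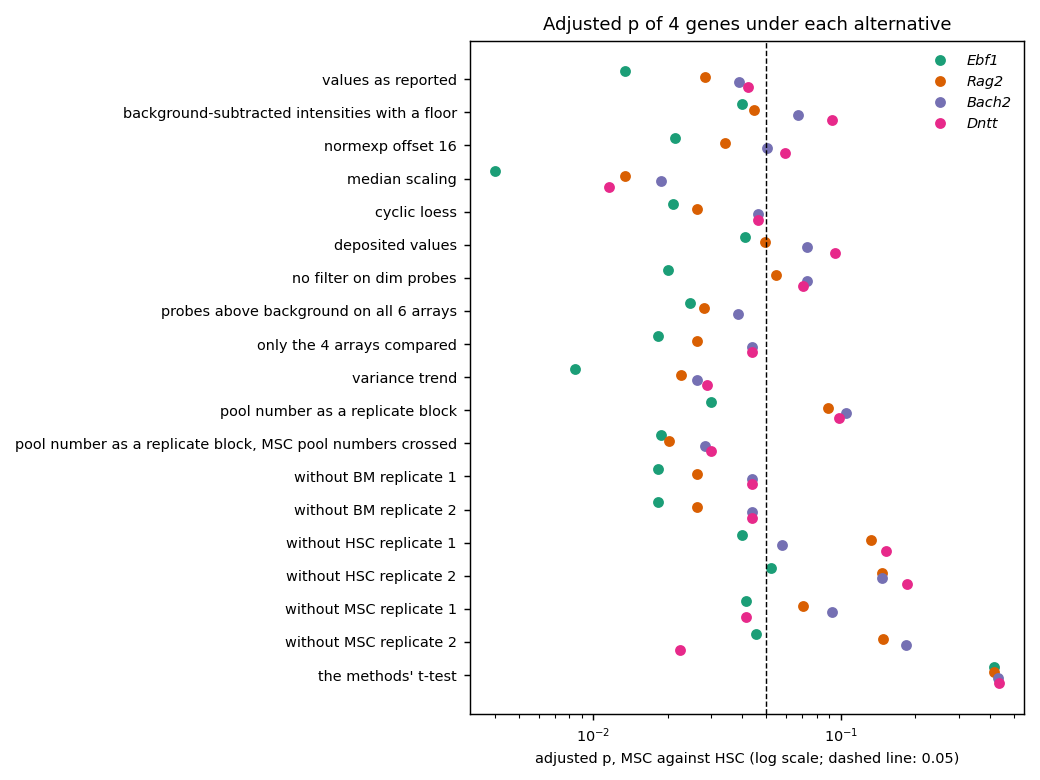
Adjusted p (x axis, log scale, with a dashed line at 0.05) of Ebf1, Rag2, Bach2 and Dntt for MSC against HSC under each way of processing (rows, where the replicate number is the pool number). Ebf1 lies left of the line in all rows except those without HSC replicate 2 and of the methods' t-test, and Dntt has no point in the row of probes above background on all 6 arrays because its spot was not above background in MSC pool 1.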

How the data were processed

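The study hybridized RNA of pooled marrow to 1-colour CodeLink arrays, 2 in each of the MSC, HSC and BM groups, and extracted spots with CodeLink Expression Analysis 4.0.0.23520 (from the submitters' processing notes). The deposited scanner files give spot and local background intensity on a linear scale. The authors' deposited table holds log2 values, ordered within each array as the absolute values of intensity minus background, with equal medians (7.87), as quantile normalization leaves them. It was used as an alternative.

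Spot mean and background median were background-corrected by normexp (offset 50) and, as log2 intensities, normalized by quantiles. Control spots and spots with quality marks for defects were left out. A probe entered a test if 1 or both groups had it above background on each array. Probes were named by sequence record (10709), gene number (3645, Bach2 among them) or array annotation (278), and 5169 stayed unnamed. Tests were two-sided with limma 3.58.1 (R 4.3.3) over all 6 arrays, which leaves 3 residual degrees of freedom, with Benjamini-Hochberg adjustment over all probes tested. Python 3.11.15, pandas 2.3.3 and matplotlib 3.10.9 read the files and drew the plots.

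Pools held different mice, so the spread is between pools. Where neither array of a group had a probe above background, the fold was taken against the larger of the measured value and the dimmest detected probe of each array, and is a lower bound. Named were all 10 genes, each called gene of the 12 other lists with up to 3 more of largest change, and the 5 nearest profiles, except that 1 gene of a list is not reported here. The genes and lists were chosen with earlier results of these data known. Alternatives changed the background correction, offset, scaling, filter, arrays fitted, variance model, pool block and test, or left out an array, where the spread came from the other groups.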

Additional observations from a re-analysis of the deposited data

How the results depend on the processing

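With MSC against HSC, the 4 genes called lower became 2 with background-subtracted intensities and a floor, with an offset of 16 and with the deposited values, 1 without a filter on dim probes and 0 with the methods' t-test after Benjamini-Hochberg adjustment, which at its own limits on p and ratio passed Rag2 only. They were 0 to 4 with an array left out, fewest without HSC replicate 2. With MSC against BM, the 1 gene called (Ebf1) became 0 with the floor, the deposited values, no filter and the methods' t-test, which at its own limits passed Bach2 only, and 0 or 1 with an array left out. With HSC against BM no gene was called under any alternative by limma, and the methods' t-test at its own limits passed Dntt only and 0 after adjustment. The cause of these changes was not tested.

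The filter for probes above background on all 6 arrays left out Dntt, Pax5 and Pou2af1. Over the other genes the median log2 fold change was -1.64 for MSC against HSC and -0.91 for MSC against BM. With an array left out, the median of the 9 genes ran over -1.81 to -0.91 for MSC against HSC, -0.97 to -0.46 for MSC against BM and 0.27 to 0.62 for HSC against BM. Leaving out an array of the group not compared gave the same fit as using only the 4 arrays compared. These alternatives are therefore not independent of each other. Under 18 alternatives Ebf1 kept its call against HSC in 16, Rag2 in 11 and Bach2 in 8, and Dntt in 9 of 17, all with the same sign. The adjusted p of limma ran over 0.00399 to 0.0522 for Ebf1, 0.0135 to 0.149 for Rag2, 0.0188 to 0.184 for Bach2 and 0.0116 to 0.185 for Dntt, and over 0.0126 to 0.0762 for Ebf1 against BM, which kept its call in 9 of 18.

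Signs turned only in small values. Pax5 between MSC and BM ran over -0.31 to 0.14 with an array left out, with 0.07 without BM replicate 2 and 0.14 without MSC replicate 2. Between HSC and BM, Lef1 was -0.012 with median scaling. With an array left out, Lef1 ran over -0.23 to 0.26 there, below 0 without BM replicate 1 or HSC replicate 1. Without BM replicate 2, Rag1 (-0.14 to 0.78 over the arrays left out), Il7r (-0.17 to 0.62) and Pou2af1 (-0.093 to 0.50) were below 0.

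Nothing in the labels pairs pools of equal number, and their replicate numbers are pool numbers. Deviations of equally numbered pools correlated at -0.11 (MSC with HSC), -0.18 (MSC with BM) and 0.25 (HSC with BM). With the pool number as a replicate block 1 gene (Ebf1) was called lower against HSC and 0 against BM. With the MSC pools crossed, an alternative chosen after seeing the data, these counts were 4 and 1. Pax5 and Pou2af1 stood near the background, which limits what these probes can show.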
